A study of Mus musculus with 31 samples.

Results

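Tsc22d3 and Sgk1 are genes that glucocorticoid hormones are known to induce. Both were selected from the 10600 named genes of a spotted array because of their measured responses in these samples, and all probes carrying exactly these symbols were taken. That gave 2 probes of 13872, 1 for each gene. Both probes had a value on all 31 arrays, 0 of these values lay at the lower limit of the deposited scale, and both passed the filter on missing values. Because their responses chose them, the values of Tsc22d3 and Sgk1 are described here with their spread between mice and with no test.

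The study asked how macrophages without MyD88, a cytoplasmic adaptor used by nearly all Toll-like receptors, respond to bacterial products. Bone marrow from C57BL/6J wild-type mice and MyD88-deficient mice (MyD88-/-), 6 to 8 weeks old, was grown for 8 days with conditioned medium of L929 cells, a source of the growth factor CSF-1, which yields macrophages. The cells received 10 ng/mL of LPS that had been re-purified (its source was E. coli O111), live log-phase E. coli at 1 bacterium per macrophage, or medium only (mock), for 2 hours. Each array held stimulated and mock RNA of 1 mouse in the Cy3 and Cy5 dyes. The 4 groups paired each genotype with LPS or with E. coli and had 4 mice each, and each mouse and stimulus had an unswapped and a dye-swapped array, except MyD88-/- LPS mouse 4, which had the unswapped array only. Conditioned medium and serum were present in every dish, mock included, and no glucocorticoid treatment is named in the labels. The log2 ratio was read as stimulated over mock, which is likely from the titles but is not stated.

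Tsc22d3 encodes GILZ, a leucine zipper protein that binds and restrains transcription factors such as NF-kappaB and AP-1 and carries part of the anti-inflammatory action of glucocorticoids in macrophages. Sgk1 encodes a serine/threonine kinase related to AKT, activated through PI3-kinase, mTORC2 and PDK1, which phosphorylates FoxO factors and Nedd4-2. The glucocorticoid receptor, encoded by Nr3c1, is held by chaperones in the cytoplasm and, once it binds hormone, induces genes by binding paired AGAACA-like elements in DNA. Both genes also respond to signals other than glucocorticoids, among them FoxO factors for Tsc22d3 and serum and osmotic stress for Sgk1.

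In the RefSeq annotation of GRCm38.p6, Tsc22d3 lies on the minus strand at chrX:140539528-140600522 and Sgk1 on the plus strand at chr10:21882184-21999903. The table of promoters lists 3 starts for Tsc22d3 and 6 for Sgk1, and the position of the array probes within the genes was not known here, so a ratio is not assigned to a start. Each window of 250 bases before to 50 after a start was searched on both strands for the glucocorticoid response element AGAACANNNTGTTC and for 1 arm of it, the single-arm site AGAACA, which the full element contains. The full element occurred in 16 of 32851 windows (0.0487%), 1 of them a window of Sgk1, and the single-arm site in 19.0% of windows. The sequences below are the 250 bases before the Sgk1 start that holds the full element (chr10:21993640-21993889, plus strand) and before the only Tsc22d3 start whose window holds a single-arm site (chrX:140600523-140600772, minus strand), 5′ to 3′ along the gene, with the matches in capitals.
Sgk1 upstream: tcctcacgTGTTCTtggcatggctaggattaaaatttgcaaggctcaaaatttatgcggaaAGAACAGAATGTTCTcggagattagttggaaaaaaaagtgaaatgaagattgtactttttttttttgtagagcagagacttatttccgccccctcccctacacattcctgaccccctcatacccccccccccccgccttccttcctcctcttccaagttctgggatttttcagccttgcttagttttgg
Tsc22d3 upstream: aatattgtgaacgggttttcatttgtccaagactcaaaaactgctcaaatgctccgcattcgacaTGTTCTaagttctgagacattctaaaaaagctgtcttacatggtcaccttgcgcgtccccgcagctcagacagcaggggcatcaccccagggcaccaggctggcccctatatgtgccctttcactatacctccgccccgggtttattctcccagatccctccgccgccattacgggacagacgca
In Sgk1 the 15 bases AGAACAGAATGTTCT match the full element on both strands, from 189 to 175 bases before the start, and a further single-arm site lies 242 bases before it. In Tsc22d3 the only single-arm site begins 185 bases before the start. Windows of 2 other Sgk1 starts hold a single-arm site only. The FoxO site TGTTTAC (3.65% of windows), the cAMP response element TGACGTCA (1.79%) and the AP-1 site TGANTCA (7.81%) had no match in any of the 9 windows of either gene. These are matches of letters in short windows and say nothing about binding.

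One array went against its partner and bears on Tsc22d3. In wild-type LPS mouse 2 the swapped array gave a Tsc22d3 ratio of -3.13 and the unswapped array 3.28, a gap of 6.40, whereas the next largest gap among the 15 pairs of arrays was 1.25 and the median gap 0.25. The same 2 arrays were not opposed as a whole. They correlated with r = 0.39 across probes, within the 0.26 to 0.71 of all 15 pairs, and of the 110 probes beyond 2 in size on both arrays 4 had opposite signs. Values are therefore given with all arrays and without this one. For Sgk1 the largest gap between the arrays of a mouse was 1.23 and the median gap 0.36.

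**Figure D1:**
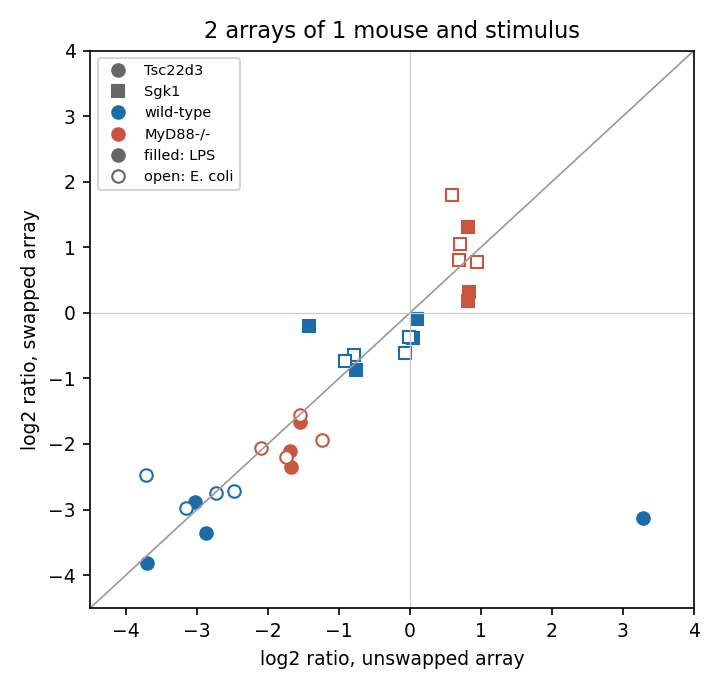
Log2 ratio on the swapped array (y axis) against the unswapped array (x axis) for each of the 15 mouse and stimulus pairs, with circles for Tsc22d3, squares for Sgk1, blue for wild-type, red for MyD88-/-, filled symbols for LPS and open symbols for E. coli; the line marks equal values. The Tsc22d3 point of wild-type LPS mouse 2, at 3.28 and -3.13, lies far from the line.

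Tsc22d3 RNA was lower in stimulated than in mock macrophages of both genotypes, and the mean ratio was further below 0 in wild-type than in MyD88-/- cells. With LPS the genotypes overlapped unless the opposed array was left out. Its mean response lay among the lowest 21 of 7325 probes tested in each of the 4 groups, at rank 15 from the lowest in wild-type LPS, 19 in MyD88-/- LPS, 8 in wild-type E. coli and 21 in MyD88-/- E. coli. Were the ratio mock over stimulated, the same ranks would count from the highest. In wild-type LPS the mouse values were -3.76, 0.08, -3.11 and -2.96 for mice 1 to 4, with a mean of -2.44 ± 1.71 (SD, n = 4). This all-array mean was a stimulated level 5.42 times lower than mock. Without the opposed array mouse 2 was at -3.13 and the mean at -3.24 ± 0.36 (SD, n = 4), or 9.44 times lower than mock. On its swapped array mouse 2 lay within the range of the other mice. In MyD88-/- LPS the mice were at -1.60, -2.01, -1.90 and -1.98, with a mean of -1.88 ± 0.19 (SD, n = 4), or 3.67 times lower than mock.

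With live bacteria the values were close to those with LPS. The wild-type E. coli mice were at -3.06, -3.09, -2.59 and -2.74, with a mean of -2.87 ± 0.24 (SD, n = 4), 7.32 times lower than mock. The MyD88-/- E. coli mice were at -1.59, -2.08, -1.55 and -1.97, with a mean of -1.80 ± 0.27 (SD, n = 4), 3.48 times lower than mock. On 30 of the 31 arrays, all but the opposed one, the Tsc22d3 ratio was below 0. As these are bulk cultures, fewer cells carrying an RNA and less of it per cell cannot be told apart.

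The genotypes differed in the size of the Tsc22d3 fall. With E. coli, MyD88-/- minus wild-type was 1.07, against a pooled SD of 0.26 within groups, and every MyD88-/- mouse lay above every wild-type mouse. That separation, in this direction, was found for 4.78% of the probes tested. With LPS the difference was 0.56 with all arrays, against a pooled SD of 1.22, and the groups overlapped through wild-type mouse 2. Without the opposed array it was 1.36, against a pooled SD of 0.28, and the groups did not overlap, as was the case for 3.40% of probes with all arrays. On the unswapped arrays alone, which include the opposed one, the LPS difference was -0.15, and on the swapped arrays alone it was 1.26. With all arrays, leaving out each mouse in turn gave 0.12 (without wild-type mouse 1) to 1.40 (without wild-type mouse 2), and 0.34 without wild-type mouse 3. In order from the lowest, the group means without that array ran from wild-type LPS over wild-type E. coli and MyD88-/- LPS to MyD88-/- E. coli. Only the step between the genotypes separated neighbours. The stimuli overlapped within each genotype. E. coli minus LPS in wild-type was 0.37 (pooled SD 0.30) without the opposed array and -0.43 (pooled SD 1.22) with it, so the order of the wild-type means turns with that array. In MyD88-/- it was 0.08 (pooled SD 0.23).

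Sgk1 took opposite signs in the 2 genotypes. In wild-type LPS the mice were at -0.81, -0.82, -0.17 and 0.01, with a mean of -0.45 ± 0.43 (SD, n = 4), and in wild-type E. coli at -0.71, -0.82, -0.34 and -0.19, with a mean of -0.52 ± 0.30 (SD, n = 4). All 8 arrays of wild-type E. coli were below 0, the highest at -0.01, whereas 2 of the 8 arrays of wild-type LPS were above 0. In MyD88-/- LPS the mice were at 1.06, 0.58, 0.51 and 1.22, with a mean of 0.84 ± 0.35 (SD, n = 4), 1.79 times the mock level. In MyD88-/- E. coli they were at 0.75, 0.88, 0.87 and 1.20, with a mean of 0.92 ± 0.19 (SD, n = 4), 1.90 times the mock level. All 15 arrays of MyD88-/- cells were above 0. In wild-type LPS the SD between mice was nearly as large as the mean, whereas in MyD88-/- E. coli it was a small part of it. The wild-type means of Sgk1 were not extreme, at rank 1105 with LPS and 1037 with E. coli from the lowest of 7325 probes. Those of MyD88-/- were at rank 376 and 343 from the highest. Were the ratio mock over stimulated, each rank would count from the other end.

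For Sgk1, MyD88-/- minus wild-type was 1.29 with LPS (pooled SD 0.39) and 1.44 with E. coli (pooled SD 0.25), and the genotypes did not overlap under either stimulus. Such a separation, in this direction, was found for 3.40% of probes with LPS and 4.78% with E. coli. Counted from the highest, the Sgk1 differences were at rank 72 and rank 45 of 7325 probes, ranks that would count from the lowest were the ratio mock over stimulated. Removing the array opposed for Tsc22d3 left the LPS difference at 1.30. Leaving out each mouse in turn kept it between 1.16 and 1.44 with LPS and between 1.34 and 1.55 with E. coli. The order of the means was wild-type E. coli, wild-type LPS, MyD88-/- LPS and MyD88-/- E. coli, and again only the genotypes were apart. E. coli minus LPS was -0.07 (pooled SD 0.37) in wild-type and 0.08 (pooled SD 0.28) in MyD88-/-. Thus the mean of Tsc22d3 was far below mock in every group, while that of Sgk1 was slightly below it in wild-type and above it in MyD88-/-. For both genes the mean ratio was higher in MyD88-/- cells. For Tsc22d3 with LPS the genotypes were apart only without the opposed array.

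**Figure D2:**
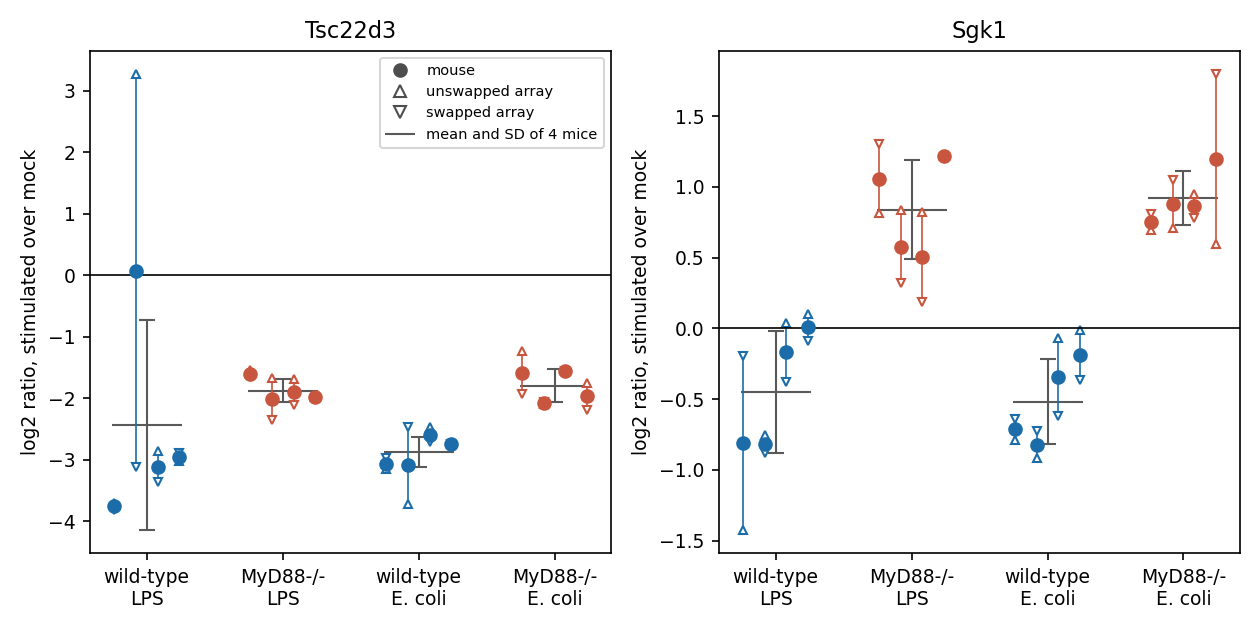
Log2 ratio of stimulated over mock RNA (y axis) of Tsc22d3 and Sgk1 in the 4 groups (x axis), with a filled circle for each mouse, open triangles for its arrays (up for unswapped, down for swapped) and a grey bar and whiskers for the mean and SD of 4 mice; the y axes differ. Tsc22d3 lies below 0 apart from 1 array at 3.28, and Sgk1 lies near or below 0 in wild-type and above 0 in all MyD88-/- mice.

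The other genes of the pathway were tested with limma (moderated linear model, 2-sided, Benjamini-Hochberg adjustment over 7325 probes, call at an adjusted p under 0.05). Of all probes tested, 7.99% rose and 9.04% fell in wild-type LPS, 5.28% rose and 4.70% fell in MyD88-/- LPS, 9.43% rose and 11.8% fell in wild-type E. coli, and 6.35% rose and 4.42% fell in MyD88-/- E. coli. Called genotype differences were few. MyD88-/- was higher for 0.0683% and lower for 0.218% of probes with LPS, and higher for 0.205% and lower for 0.546% with E. coli. The share of all probes with an unadjusted p under 0.05 between genotypes is not given here. The unadjusted genotype counts of the lists below therefore have no background to be read against. No probe was called for a difference between the stimuli in wild-type (297 at an unadjusted p under 0.05 by limma), in MyD88-/- (177) or in the interaction (219). The median response over all probes lay between -0.06 and -0.05 in the 4 groups.

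The receptor gene and its machinery come first. The Nr3c1 probe was not called in any response, with means of 0.22 ± 0.38 in wild-type LPS, 0.67 ± 0.15 in MyD88-/- LPS, -0.31 ± 1.03 in wild-type E. coli and 0.20 ± 0.40 in MyD88-/- E. coli (SD, n = 4). Of 12 tested genes for the receptor, steroid enzymes, chaperones and coregulators, 1 rose and 1 fell in each wild-type response, and 2 rose and 0 fell in each MyD88-/- response. Stip1, the co-chaperone that links HSP70 and HSP90, rose in all 4 groups, by 0.96 in wild-type LPS, 0.96 in MyD88-/- LPS, 0.75 in wild-type E. coli and 0.94 in MyD88-/- E. coli (largest limma adjusted p 0.00633). Ncoa3, a coactivator of nuclear receptors, fell by 0.90 and 1.21 in the wild-type responses to LPS and E. coli (adjusted p 0.0192 and 0.00243). Nrip1, a corepressor, rose by 0.94 and 0.79 in the MyD88-/- responses (adjusted p 0.014 and 0.0373). On the swapped arrays alone the 4 Stip1 calls, the Ncoa3 call with LPS and both Nrip1 calls were lost. The Ncoa3 call with LPS was also lost without mouse 1, 2 or 4 of that group. The Nrip1 calls were also lost without mouse 2 or 4 (LPS) and mouse 2, 3 or 4 (E. coli). The Nrip1 call with E. coli was lost on the unswapped arrays alone and with values in at least 2 of 4 mice too. The median of the list lay between -0.08 and 0.10 in the 4 responses, and 0 of the 12 were called between genotypes by limma. At an unadjusted p under 0.05 there were 0 with LPS and 2 with E. coli, with no share over all probes beside them. The enzymes Hsd11b1 and Hsd11b2, which activate and inactivate glucocorticoid, had too few values to be tested.

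Other genes that glucocorticoids induce in various tissues did not fall as a group. Of 31 on the array 15 could be tested. In wild-type LPS 6 rose and 2 fell, in MyD88-/- LPS 3 and 2, in wild-type E. coli 6 and 1, and in MyD88-/- E. coli 5 and 2, with medians from 0.13 to 0.24. Without the opposed array 1 fell in wild-type LPS, as the call of Bcl6, a transcriptional repressor at -0.60, was lost. Without MyD88-/- E. coli mouse 1 or mouse 2 only 1 gene rose there. Many of these genes are known to respond to inflammatory signals as well. Birc3, an inhibitor of apoptosis and NF-kappaB target, rose by 3.24 ± 0.40 (SE) in wild-type LPS and 1.70 ± 0.40 (SE) in MyD88-/- E. coli (adjusted p 4.52e-05 and 0.0111), and the latter call was lost without MyD88-/- E. coli mouse 1 or mouse 3, with an adjusted p of up to 0.0664. Rgs2, which shortens signalling by G-protein-coupled receptors, fell in all 4 groups, with values of -2.11 and -2.05 in wild-type and of -2.27 and -2.50 in MyD88-/- cells with LPS and E. coli (largest adjusted p 9.49e-05). Mt2, a metallothionein, and Zfp36, which destabilises cytokine mRNA, also rose in all 4 groups, Mt2 by 0.62 to 1.30 and Zfp36 by 0.69 to 1.56. Their wild-type calls held under every alternative run, and their MyD88-/- calls were lost on the swapped arrays alone. The Mt2 call in MyD88-/- LPS was also lost without any 1 mouse of that group and that in MyD88-/- E. coli without mouse 2. The Zfp36 call was lost without mouse 1 of MyD88-/- LPS and without mouse 1 or mouse 2 of MyD88-/- E. coli.

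Cebpd, which encodes the inflammatory transcription factor C/EBP delta, was the gene of this list called between genotypes. An unadjusted limma p under 0.05 was found for 3 of 15 with LPS and 6 of 15 with E. coli. With no share over all probes beside them, these counts are not read as a result. Cebpd rose by 1.29 and 1.78 in wild-type cells with LPS and E. coli and fell by 1.18 and 1.22 in MyD88-/- cells. MyD88-/- minus wild-type was -2.47 ± 0.25 (SE; limma adjusted p 0.000212) with LPS and -3.00 ± 0.25 (SE; adjusted p 1.45e-05) with E. coli, a direction opposite to that of Sgk1. On the swapped arrays alone the LPS difference was not called (adjusted p 0.0772). Some classical glucocorticoid targets could not be followed. Fkbp5, the co-chaperone used as a readout of receptor activity, lay between -0.49 and 0.07 and was not called, and Per1, Dusp1, Klf9 and Zbtb16 had too few values.

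Probes of the same gene disagreed in places. A second Sphk1 probe was not called in any response (0.05 in wild-type LPS), whereas the probe with more values rose by 3.14 in wild-type LPS and by 2.80 in wild-type E. coli. For Thbs1, an extracellular matrix protein, the probe used gave 0.64 in wild-type LPS with no call, and a second one fell in all 4 groups, with -2.09 in wild-type LPS (adjusted p 0.00101). The direction of Thbs1 is therefore uncertain. For Sphk1 the second probe lay between -0.09 and 0.75, so whether and how far Sphk1 rose is uncertain. The list counts rest on the probe used. Tsc22d3 and Sgk1 have no second probe against which to set their values.

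**Figure D3:**
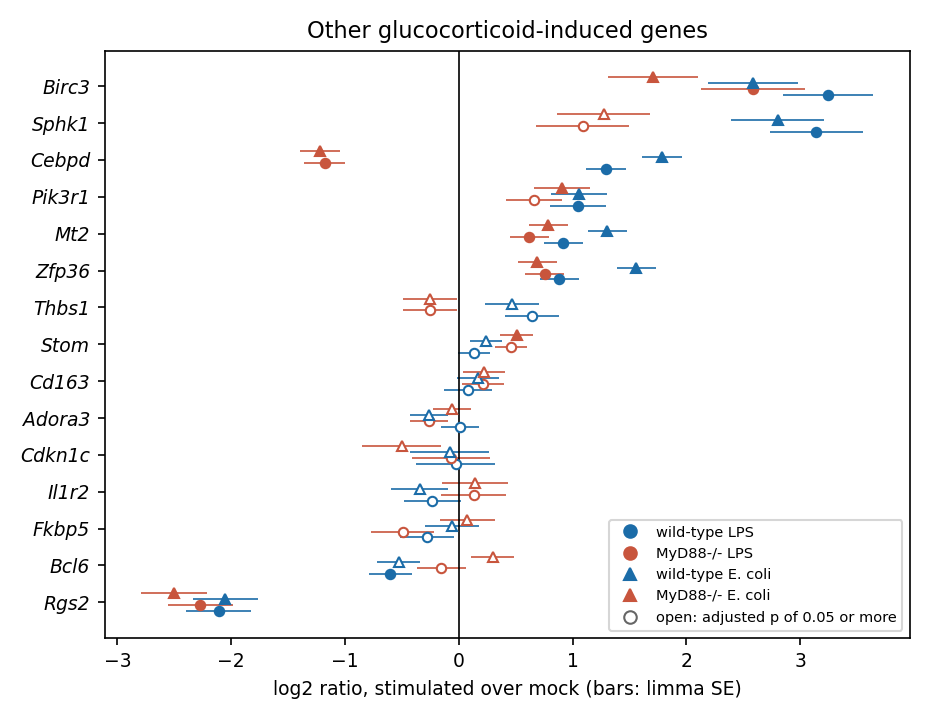
Fitted log2 ratio of stimulated over mock RNA (x axis, with the limma SE as bars) for the 15 tested glucocorticoid-induced genes other than Tsc22d3 and Sgk1 (y axis), by group; filled symbols have an adjusted p under 0.05. Rgs2 lies near -2 in all groups, and Cebpd is above 0 in wild-type and below 0 in MyD88-/- cells.

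The genes around Tsc22d3 were followed through its family and the partners of its protein, of which 9 were tested. In wild-type LPS 2 rose and 1 fell, and in MyD88-/- LPS 1 rose and 1 fell. In wild-type E. coli 3 rose and 1 fell, and in MyD88-/- E. coli 1 rose and 2 fell. The medians lay between -0.17 and 0.20, and 0 were called between genotypes by limma. At an unadjusted p under 0.05 there were 2 with LPS and 1 with E. coli, with no share over all probes beside them. Tsc22d1, the founding member of the family, moved the opposite way to Tsc22d3 in wild-type cells. It rose by 1.30 with LPS and 1.54 with E. coli (adjusted p 0.00144 and 0.000297) and stood at 0.27 and 0.28 in MyD88-/- cells with no call. On the unswapped arrays alone the Tsc22d1 values were lower and not called (adjusted p 0.384 with LPS and 0.0574 with E. coli). Tsc22d2 lay between -0.33 and 0.20 and Tsc22d4 between -0.45 and -0.29, with no call. Of the transcription factors that GILZ binds, Rela, the p65 subunit of NF-kappaB, rose by 0.87 to 0.98 in the 4 groups (largest adjusted p 0.00247). Its calls in MyD88-/- LPS and wild-type E. coli were lost on the swapped arrays alone (adjusted p 0.18 and 0.0518). Jun, a subunit of AP-1, fell by 1.72 to 2.57 in the 4 groups (largest adjusted p 0.00414). Fos, its partner, fell by 1.28 in MyD88-/- E. coli (adjusted p 0.0162). This Fos call was lost on the swapped arrays alone and without mouse 3 or mouse 4 of that group. Cebpb rose by 1.42 in wild-type E. coli (adjusted p 0.0204), a call lost on the unswapped arrays alone and without mouse 1, 2 or 3. A second Cebpb probe rose by 0.80 in wild-type LPS and by 1.03 in wild-type E. coli.

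Sgk1 was set beside the kinases of its pathway, their activators and their substrates, 19 of which were tested. In wild-type LPS 4 rose and 2 fell, and in MyD88-/- LPS 2 rose and 3 fell. In wild-type E. coli 2 rose and 3 fell, and in MyD88-/- E. coli 3 rose and 2 fell. The medians lay between -0.15 and -0.02, and 0 were called between genotypes by limma. At an unadjusted p under 0.05 there were 0 with LPS and 4 with E. coli, with no share over all probes beside them. Sgk3, the related kinase, lay between -0.07 and 0.10, and Sgk2 had too few values. Akt1 and Akt2 were not called in any response. Ndrg1, whose protein is a substrate of SGK1, rose in all 4 groups, by 2.24 in wild-type LPS, 2.08 in MyD88-/- LPS, 2.70 in wild-type E. coli and 1.72 in MyD88-/- E. coli (largest adjusted p 6.17e-05). Inpp5d, the SHIP1 phosphatase that opposes PI3-kinase, fell by 0.71 to 1.01 in the 4 groups. Pdpk1, the kinase that activates SGK1, fell by 0.75 and 0.78 in MyD88-/- cells with LPS and E. coli (adjusted p 0.00121 and 0.000805) and was at -0.40 and -0.32 in wild-type with no call. Neither Pdpk1 call held on the swapped arrays alone, nor did that of Inpp5d in MyD88-/- LPS. Rptor fell by 1.25 in MyD88-/- LPS and by 1.20 in wild-type E. coli. Pik3r1 rose by 1.05 in wild-type LPS, 1.06 in wild-type E. coli and 0.91 in MyD88-/- E. coli. Rictor rose by 0.52 in wild-type LPS. Among the Rptor, Pik3r1 and Rictor calls, only that of Pik3r1 in wild-type E. coli held under every alternative run.

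FoxO factors and the genes they induce belong to the pathway that SGK1 restrains. Of a list of these factors and induced genes 22 were tested, Foxo1 among them. In wild-type LPS 8 rose and 5 fell, in MyD88-/- LPS 6 and 3, in wild-type E. coli 8 and 4, and in MyD88-/- E. coli 4 and 3, with medians between -0.17 and 0.16. Between genotypes 1 was called with each stimulus, and 5 with LPS and 8 with E. coli had an unadjusted p under 0.05. No share over all probes at that unadjusted threshold stands beside these counts. Txnip, the thioredoxin-binding protein that restrains glucose uptake, fell in wild-type cells, to -4.15 with LPS and -3.08 with E. coli, and was at -0.57 and -0.40 in MyD88-/- cells with no call. MyD88-/- minus wild-type was 3.58 ± 0.42 (SE; limma adjusted p 0.00108) with LPS and 2.68 ± 0.39 (SE; adjusted p 0.00303) with E. coli, the same direction as for Tsc22d3 and Sgk1. The LPS difference was not called on the swapped arrays alone (adjusted p 0.0564), nor the E. coli difference on the unswapped arrays alone (adjusted p 0.0558). A second Txnip probe gave -3.74 and -3.45 in wild-type cells. Sod2, mitochondrial superoxide dismutase, rose by 2.71 to 2.90 in all 4 groups, and Bcl2l11, the pro-apoptotic BIM, by 2.21 to 3.51. The Bcl2l11 call in wild-type E. coli was lost on the swapped arrays alone (adjusted p 0.0506). The growth-arrest gene Gadd45a fell in all 4 groups, with -1.34 and -1.63 in MyD88-/- cells and -0.87 and -0.79 in wild-type cells with LPS and E. coli. Cdkn1a, a cell-cycle inhibitor, rose by 2.03 to 2.58 on the probe used, and a second probe gave 0.22 in wild-type LPS with no call.

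The genes whose ratios were closest to Tsc22d3 were found by the root mean square difference over at least 14 of the 16 mouse-level ratios. Without the opposed array the closest were Ivd, a mitochondrial enzyme of leucine breakdown (0.52), 2700062C07Rik (0.54), Lyl1, a haematopoietic transcription factor (0.56), Tmem273 (0.69) and Hhex, a homeobox factor (0.72), where the median of 5651 candidate genes was 2.53. The group means of Ivd were -2.54 and -2.87 in wild-type cells and -1.77 and -1.58 in MyD88-/- cells with LPS and E. coli. With all arrays the list changed, to Hhex (0.80), Ddit3 (0.80), Tnfaip8l2 (0.88), Tmem273 (0.89) and Ivd (0.96). The genes closest to Sgk1 with all arrays were Faim2, an inhibitor of Fas signalling (0.35), Rps26, a ribosomal protein (0.44), Sh3kbp1, an adaptor of receptor endocytosis (0.46), Ppp2r5d, a regulatory subunit of protein phosphatase 2A (0.48) and Psmb3, a proteasome subunit (0.48), where the median of 5774 candidates was 0.93. Faim2 had means of -0.35 in wild-type LPS, 0.60 in MyD88-/- LPS, -0.09 in wild-type E. coli and 0.91 in MyD88-/- E. coli. The Sgk1 values are small, so a small difference is also reached by genes with ratios near 0, and closeness is a description over 16 ratios.

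**Figure D4:**
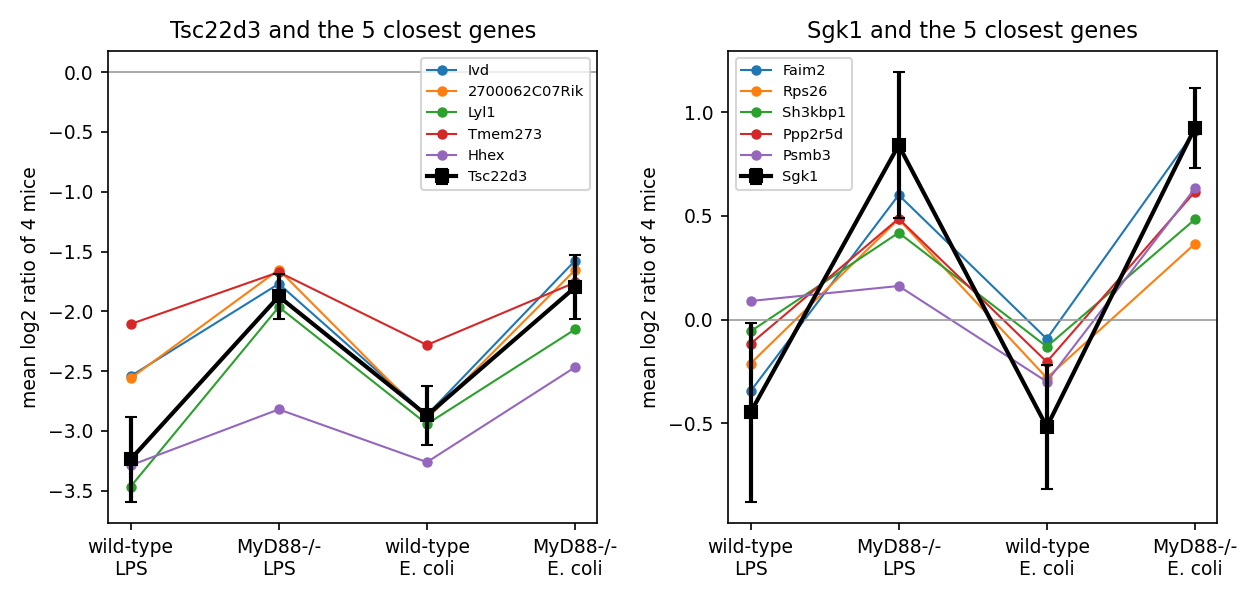
Mean log2 ratio of 4 mice (y axis) in the 4 groups (x axis) for Tsc22d3 without the opposed array and Sgk1 with all arrays (black squares, with SD) and for the 5 genes closest to each (coloured lines, means only). All 5 genes near Tsc22d3 were less far below 0 in MyD88-/- than in wild-type cells. Their choice by closeness over these same ratios favours this. With all arrays Hhex was at -2.79 in wild-type LPS and -2.82 in MyD88-/- LPS. The genes near Sgk1 stay nearer to 0 than Sgk1 in wild-type cells.

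The arrays give ratios of stimulated over mock RNA within a genotype, so neither the level of MyD88 RNA in MyD88-/- cells nor the levels of macrophage markers can be read from them. The Myd88 probe rose by 2.16 in MyD88-/- LPS and by 1.38 in wild-type LPS (limma adjusted p 0.00293 and 0.0346). With E. coli it rose by 1.48 in wild-type (adjusted p 0.0198) and stood at 1.29 in MyD88-/- cells with no call (adjusted p 0.0658). Both wild-type calls were lost when single mice were left out. Whether it lies within the deleted part was not known here, so it does not check the labels. Of 7 tested macrophage markers 2 fell in wild-type LPS, 1 in MyD88-/- LPS, 1 in wild-type E. coli and 0 in MyD88-/- E. coli, with medians from -0.31 to -0.17. Fcgr1, the high-affinity IgG receptor, fell by 0.47 in both LPS groups and by 0.58 in wild-type E. coli. All its calls were lost on the swapped arrays alone. That in wild-type LPS was also lost without mouse 1 and without the array opposed for Tsc22d3, and that in MyD88-/- LPS without mouse 1, 2 or 3. Cd68 fell by 0.50 in wild-type LPS, a call lost on the swapped arrays alone and without mouse 3 or 4. Markers of lymphocytes (1 tested for T and 4 for B cells), of neutrophils (3), of dendritic cells (2) and of the erythroid and stromal lineages (1 each) gave 4 calls in single groups. These were Cd79a at -1.05 in MyD88-/- LPS, Ighm at 0.75 in MyD88-/- E. coli, where 2 other tested Ighm probes were not called, Zbtb46 at 0.70 in wild-type LPS, where a second probe gave -0.16, and Sparc at 0.66 in wild-type E. coli. One of those other Ighm probes rose by 1.14 in wild-type LPS (adjusted p 0.02), where the probe used gave 0.32 with no call. The Sparc call held under every alternative run, whereas those of Cd79a and Ighm were lost without mouse 4 of their group and that of Zbtb46 without mouse 1, 3 or 4. The Cd79a, Ighm and Zbtb46 calls were also lost on the swapped arrays alone. That of Zbtb46 was lost with centring and scaling and without the array opposed for Tsc22d3 too. No marker was called between genotypes by limma. At an unadjusted p under 0.05 there were 3 of 19 with each stimulus, with no share over all probes beside this count. The part of these markers in the Tsc22d3 and Sgk1 ratios was not tested. The arrays held between 5564 and 10497 probes with values.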

How the data were processed

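RNA was labelled with Cy3 and Cy5 and hybridised to 31 2-colour spotted arrays. Per the labels, the authors quantified the scans with GenePix Pro 3.0 and analysed them in BASE and GeneSpring. The deposited values are log2 ratios. Background correction, normalization, spot filter and ratio direction are not given in the sources used here. Values at -6.64, log2 of 0.01, were treated as missing. Both arrays of a dye pair were averaged to 1 value, which gave 16 mouse-level ratios, and 0 columns were left unmapped.

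Probes with values in at least 3 of 4 mice of every group (7325 of 13872) were fitted with limma 3.58.1 in R 4.3.3 (1 coefficient per group, lmFit and eBayes, adjustment by Benjamini and Hochberg, threshold 0.05). The fit was tested on simulated data. Symbols came from the platform annotation, in which 11480 probes had 1 symbol, 50 several and 2342 none; a gene with several probes is given by the one with most values. Named genes were Tsc22d3, Sgk1, the 5 closest to each, up to 4 called genes of largest change per list and comparison, and the receptor and family genes; other genes named were chosen after their values were seen. The genes and lists were chosen with earlier results of these data known. Promoters came from RefSeq (GRCm38.p6).

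Alternatives were the values at the lower limit kept, centring, centring with scaling, each dye orientation alone, other filters, each mouse left out, a dye term with a random block, and, added after seeing the data, 1 array left out. Replicates are separate mice per the labels; whether the 2 stimuli of a mouse shared mock RNA is not given. Same-numbered mice of the 2 stimuli had residual correlations between -0.08 and 0.17. The number of arrays and of mice limits the precision. Plots used matplotlib 3.10.9 (python 3.11.15).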

Additional observations from a re-analysis of the deposited data

Results flagged for a closer look

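Sgk1 moved in opposite directions in the genotypes with E. coli. All 4 wild-type mice were below 0 and all 4 MyD88-/- mice above 0. Every MyD88-/- mouse lay above every wild-type mouse, whatever the signs, for 4.78% of the probes tested with E. coli. The share of probes with opposite signs is not given here. For Sgk1 the difference was 1.44, and since the values chose the gene this difference was not tested. Among the genes beside it, the genotype difference was called by limma for Cebpd with LPS (-2.47) and E. coli (-3.00) and for Txnip with LPS (3.58) and E. coli (2.68). In 72 sets of 4 mice, 0 passed Dixon's criterion, which wild-type LPS mouse 2 for Tsc22d3 also missed although it was at 0.08 and the other mice between -3.76 and -2.96.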

How the results depend on the processing

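The signs of the mean Tsc22d3 and Sgk1 responses and of the Sgk1 genotype differences held under every alternative run, and the Tsc22d3 difference with LPS turned only on the unswapped arrays alone. Dye orientation moved several values by more than the spread between mice. The Tsc22d3 genotype difference with E. coli was 1.36 on the unswapped and 0.79 on the swapped arrays alone, and that of Sgk1 was 1.18 and 1.70. The genotype by stimulus interaction was 1.51 and -0.47 for Tsc22d3 and -0.25 and 0.71 for Sgk1. The unswapped Tsc22d3 value includes the opposed array of wild-type LPS mouse 2, without which the interaction over both orientations was -0.29. In addition, E. coli minus LPS for Sgk1 in MyD88-/- cells was 0.51 on the swapped arrays. The cause was not tested. Of 71 calls of the named genes of the 5 pathway lists, 43 held under every alternative run, 21 were lost on the swapped and 6 on the unswapped arrays alone, 12 were lost without some mouse, and 0 changed sign.

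Called probes over the whole array numbered 1247, 731, 1554 and 789 for LPS in wild-type, LPS in MyD88-/-, E. coli in wild-type and E. coli in MyD88-/- cells, and fell to 676, 301, 888 and 525 on the swapped arrays alone, where MyD88-/- LPS keeps 3 mice, and were 1290, 744, 1507 and 801 on the unswapped arrays alone. For the genotype difference with LPS, 21 calls became 12 on either orientation alone, 35 with a value required in all 4 mice and 42 with the dye term and random block; with E. coli, 55 became 24 on the unswapped arrays, 86 with all 4 mice and 189 with the dye term. With at least 2 of 4 mice, 1 probe was called between stimuli in wild-type. With each mouse left out, the calls ranged from 854 to 1360, 497 to 787, 1115 to 1630 and 510 to 837 for the 4 responses, from 18 to 26 for the LPS difference and from 35 to 55 for the E. coli difference. The lowest counts past 1.5 times came without MyD88-/- E. coli mouse 2 (510), E. coli mouse 1 of wild-type (35) and E. coli mouse 1 of MyD88-/- (36).

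The labels give no shared origin for equal mouse numbers, and each mouse was closest to its own number in 2 of 8 cases. A fit with the replicate block called 0 probes between stimuli. With complete values the block cannot change a difference of means, so E. coli minus LPS in wild-type, all arrays included, stayed at -0.43 for Tsc22d3 and -0.07 for Sgk1 by construction.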
